A study of Homo sapiens with 6 samples.

Results

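Collagens are the triple-helical proteins of the extracellular matrix, and each collagen gene encodes one of the chains that wind into the helix. The collagen genes of Caki-1 cells were taken as all genes whose symbol is COL, a number, A and a number, which gave 44 of the 60708 genes in the count table. Of these, 26 had 10 or more reads in at least 1 sample and were tested, and 18 did not. The 26 were COL1A1, COL4A1, COL4A2, COL4A3, COL4A4, COL4A5, COL4A6, COL5A2, COL6A1, COL6A2, COL6A3, COL7A1, COL8A1, COL8A2, COL9A2, COL9A3, COL11A2, COL12A1, COL13A1, COL14A1, COL16A1, COL17A1, COL18A1, COL24A1, COL27A1 and COL28A1.

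Chains differ in the structures they build. Type IV chains form the sheet-like network of basement membranes, including that under the epithelium of kidney tubules and the filter of the glomerulus, while fibrillar chains build the striated fibers of connective tissue. Types VI and VII form beaded filaments and anchoring fibrils, FACIT collagens (fibril-associated collagens with interrupted triple helices) decorate fibrils, and other members are multiplexins, short-chain networks or proteins that span the cell membrane. The von Hippel-Lindau protein VHL recognizes hydroxylated HIFα as part of a ubiquitin ligase complex and so keeps HIF low, and it is also known for its part in the assembly of extracellular matrix.

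RNA was sequenced from Caki-1, an established line of human clear cell renal carcinoma with a wild-type VHL gene. The 3 VC samples came from cells infected with the lentiviral CRISPR vector alone, and the 3 VHL-KO samples came from cells infected with the same kind of vector carrying a guide against VHL. Both groups thus share the vector, and according to the methods of the study infected cells were selected with puromycin and VHL-KO lines were grown as clones screened by immunoblot. Which guide and which clone were sequenced is not given in the sources used here, so the loss of VHL and any other feature of a clone cannot be told apart. The samples held 31789923, 28463579 and 34881739 counted reads in VC replicates 1 to 3 and 29139722, 22805385 and 22628246 in VHL-KO replicates 1 to 3. Where no read was seen, a level of up to 3 counts remains possible, which is 0.079 CPM (reads scaled to sequencing depth) in the deepest and 0.141 CPM in the shallowest sample, and this limit covers counting error only. Nothing states that the 3 samples of a group were separate cultures, so p-values measure the spread between these samples, which may be technical.

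The edited gene was checked first. VHL had 1454, 1124 and 1522 reads for VC against 929, 657 and 650 for VHL-KO, and the groups did not overlap after normalization. Its log2 fold change was -0.33 (adjusted p = 0.0109 in edgeR's quasi-likelihood test). This call was lost under 5 of the 15 alternatives, among them upper quartile factors and the offsets for GC content and length. A small insertion or deletion made by Cas9 can end the protein and leave the mRNA in place, so the level of VHL mRNA is a weak check of the labels. Of the exonic bases of VHL, 23.46% also overlap another gene on the opposite strand. Targets of HIF were used as another check, and 9 of 10 were higher in VHL-KO cells, where 28.5% of all genes were. The most abundant of them in VHL-KO cells, NDRG1, a stress-response gene induced by hypoxia, had 12.1, 11.1 and 11.7 CPM in VC and 728, 774 and 781 CPM in VHL-KO cells. The exception was EGLN3, a HIF prolyl hydroxylase, which was lower (log2 fold change -1.26).

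Markers of cell type were examined next, because many collagens are best known from fibroblasts. Of 12 renal epithelial markers, 8 had 10 or more reads, and their summed level was 1671, 1888 and 1512 CPM in VC and 2347, 2269 and 2281 CPM in VHL-KO cells. The most abundant was the keratin KRT8. Of the 8 markers 5 were called higher and 2 lower, beside 28.5% and 31.2% of all genes. The largest change was that of the cadherin CDH16 (log2 fold change 3.42), those that fell were the transcription factor LHX1 (-1.67) and the adhesion protein EPCAM (-1.42), and PAX2 and LRP2 were at 0 in all samples. Of 10 fibroblast markers, 4 had 10 or more reads, LUM and DPT were at 0, and DCN, PDGFRA, POSTN and FAP had under 10 reads. The summed fibroblast level was 31.8, 32.6 and 28.2 CPM in VC and 68.3, 64.2 and 62.4 CPM in VHL-KO cells, most of it from the smooth muscle actin ACTA2, which rose (log2 fold change 1.59), while the growth factor receptor PDGFRB fell (-1.94). Endothelial markers summed to between 0.168 and 0.237 CPM in VC and between 0.324 and 0.711 CPM in VHL-KO cells, with 1 of 7 genes, PECAM1, at 10 or more reads (called higher, but not without VC replicate 3, with log2 fold changes from 2.11 to 4.57 when one sample was left out) and TEK, EMCN and CLDN5 at 0. KDR went the other way, with 4, 0 and 9 reads for VC against 0, 0 and 0 for VHL-KO. Leukocyte markers summed to between 1.42 and 1.88 CPM in VC and between 3.66 and 5.56 CPM in VHL-KO cells, with 1 of 8 genes, CD14, at 10 or more reads and CD3E, CD3D and TYROBP at 0. CD14 made up most of this sum and was called higher (log2 fold change 1.47, adjusted p = 7e-06 in edgeR's quasi-likelihood test). Whether a level differs because fewer cells express a gene or because each cell holds less of its RNA cannot be told apart.

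Collagen genes moved in both directions in VHL-KO cells. Of the 26 tested, 6 were higher (23.1%) and 9 were lower (34.6%) at an adjusted p under 0.05, and 11 did not pass. Among all 17401 genes tested, 59.7% passed, 28.5% higher and 31.2% lower, so the collagens were called about as often as other genes. Among the called collagens, at least 2-fold changes were found for 4 that rose, COL4A3, COL4A4, COL8A1 and COL18A1, and 4 that fell, COL4A1, COL5A2, COL12A1 and COL13A1. Of all genes, 13.9% were called higher and 12.3% lower by this much. COL8A1 and COL18A1, with log2 fold changes of 1.02 and 1.03, only just reached 2-fold, and this depends on the scaling. By library size alone the log2 ratios of the summed short-chain and multiplexin levels, nearly all from these genes, were 0.83 and 0.84. VC and VHL-KO values were fully separated for 17 of the 26 collagens (65.4%), against 64.7% of all genes. The median log2 fold change was -0.09 for collagens and -0.01 for all genes.

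**Figure D1:**
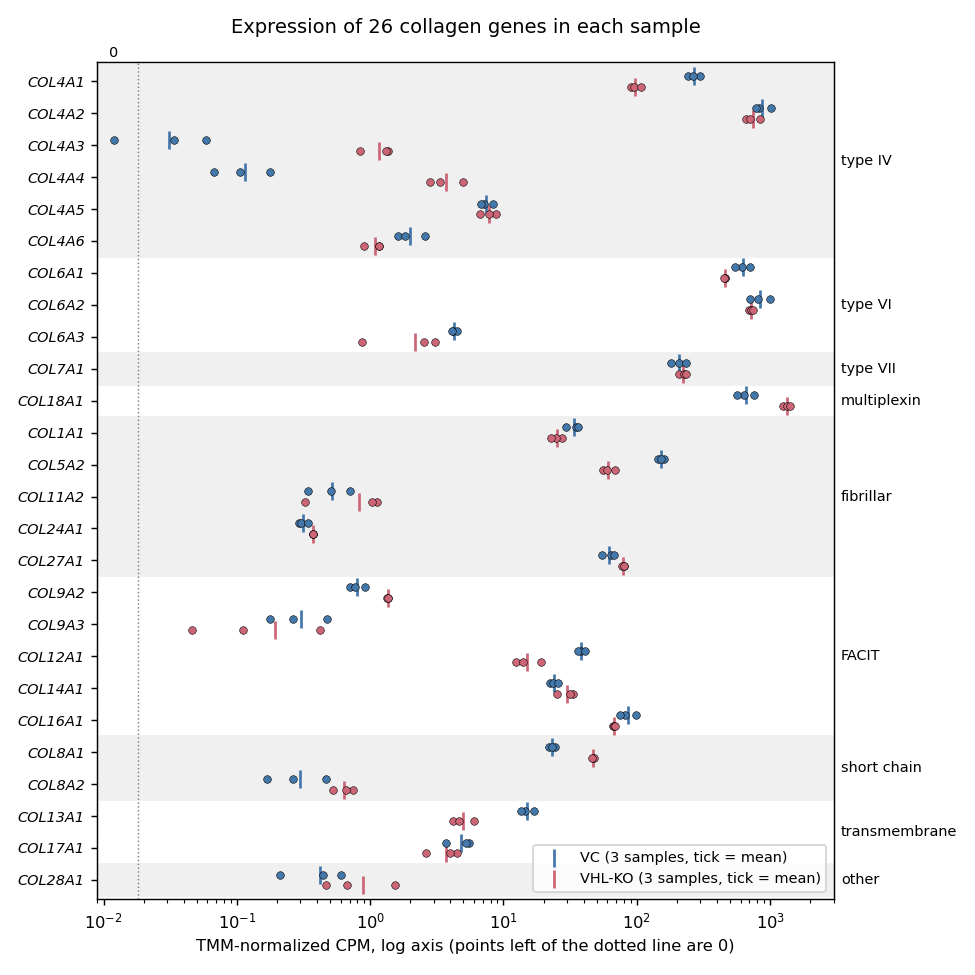
Level of the 26 tested collagen genes in each sample, in TMM-normalized CPM on a log axis, with VC samples in blue, VHL-KO samples in red and ticks at the group means. COL18A1 had the highest level of all in VHL-KO cells, while COL4A3 and COL4A4 stood near the limit of detection in VC and above 0.8 CPM in VHL-KO cells.

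The scaling of the samples moves all genes together. The median of all genes was -0.20 by library size alone and 0.10 by upper quartile factors, and the collagen median was -0.28 and 0.02 under these scalings, which leaves it 0.07 to 0.08 below that of all genes under each. Calls split into 6 higher and 9 lower collagens with TMM factors, 4 and 12 by library size alone and 8 and 8 by upper quartile factors. The same 3 scalings put 47.7%, 35.8% and 55% of the calls of all genes on the higher side. Fold changes also followed base composition. Genes with a GC content under 45% had a median of -0.37 and genes with 60% or more a median of 0.52, and 9 of the 26 collagens lie in the second range. With offsets for GC content and length in each sample these medians were 0.06 and -0.03. The collagen median was then -0.28 against 0.03 for all genes, a wider gap of -0.31, and 6 collagens were called higher and 12 lower, while 50.4% of the calls of all genes were on the higher side. Such offsets also remove any biological change that follows GC content.

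**Figure D2:**
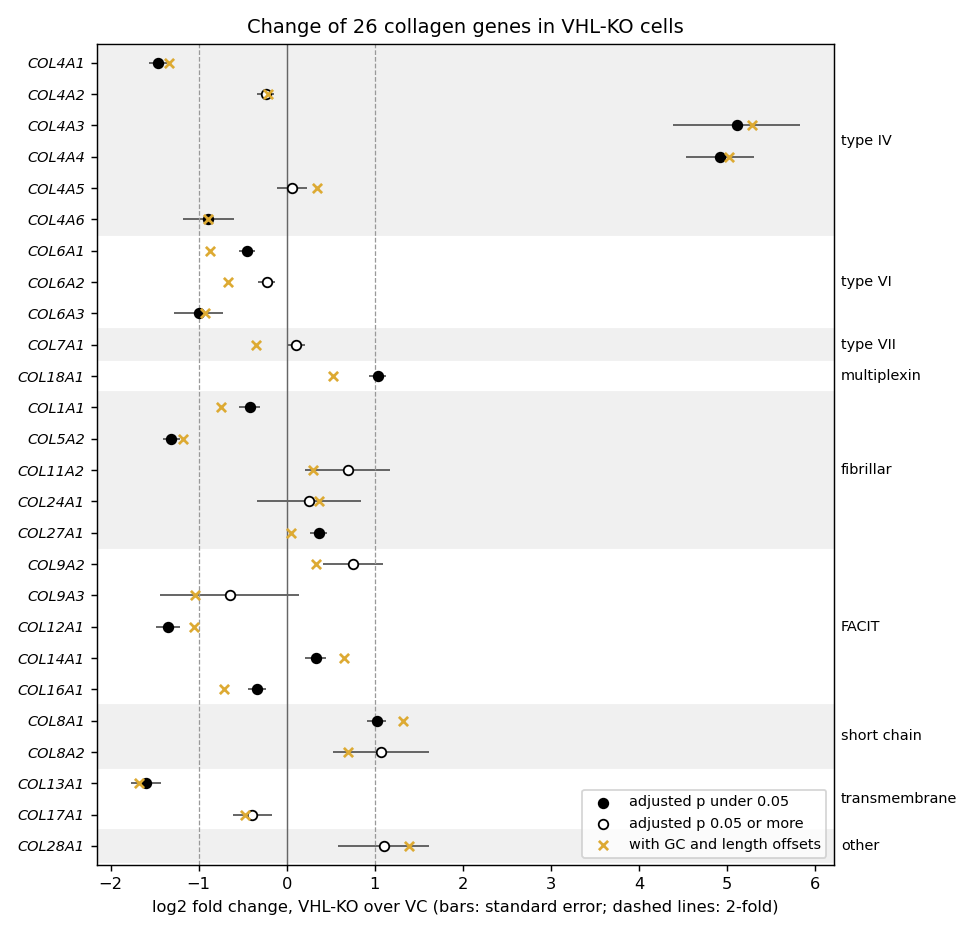
Log2 fold change of each tested collagen gene in VHL-KO against VC cells with its standard error, grouped by class, with filled circles for adjusted p-values under 0.05 and crosses for the value with GC and length offsets. COL4A3 and COL4A4 lie near 5, far from all other collagens, and COL18A1 moved from 1.03 to 0.53 with the offsets.

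Type IV collagen showed the widest contrast within a class. All 6 of its chains were tested, with COL4A3 and COL4A4 higher, COL4A1 and COL4A6 lower, and COL4A2 and COL4A5 not passing the test. The 6 genes lie as head-to-head pairs that are transcribed away from each other, so that the promoter regions of a pair adjoin. On GRCh38.p14 the RefSeq starts of COL4A3 and COL4A4 are 419 bases apart on chromosome 2, and those of COL4A1 and COL4A2 are 127 bases apart on chromosome 13. The promoter windows of RefSeq, from 250 bases before to 50 bases after the start, are shown for the pair that rose together and for COL4A2, whose window shares 226 bases with that of COL4A1 on the opposite strand. Capitals mark the core of the hypoxia response element, searched as ACGTG or GCGTG on both strands. The windows are COL4A3 at chr2:227164374-227164673 on the plus strand, COL4A4 at chr2:227164156-227164455 on the minus strand and COL4A2 at chr13:110307034-110307333 on the plus strand, each written 5′ to 3′ on its own strand.
COL4A3: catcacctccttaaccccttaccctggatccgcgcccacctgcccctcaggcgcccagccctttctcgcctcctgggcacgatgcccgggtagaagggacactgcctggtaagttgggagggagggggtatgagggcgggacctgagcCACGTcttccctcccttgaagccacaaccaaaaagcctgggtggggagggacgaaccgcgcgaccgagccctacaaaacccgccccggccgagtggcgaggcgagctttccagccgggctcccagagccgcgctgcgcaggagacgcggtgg
COL4A4: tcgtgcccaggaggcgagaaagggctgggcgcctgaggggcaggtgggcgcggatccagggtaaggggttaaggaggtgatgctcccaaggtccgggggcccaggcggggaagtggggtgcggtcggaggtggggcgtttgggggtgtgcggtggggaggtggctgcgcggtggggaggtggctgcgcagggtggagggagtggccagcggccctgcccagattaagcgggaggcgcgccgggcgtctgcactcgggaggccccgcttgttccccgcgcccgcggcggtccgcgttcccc
COL4A2: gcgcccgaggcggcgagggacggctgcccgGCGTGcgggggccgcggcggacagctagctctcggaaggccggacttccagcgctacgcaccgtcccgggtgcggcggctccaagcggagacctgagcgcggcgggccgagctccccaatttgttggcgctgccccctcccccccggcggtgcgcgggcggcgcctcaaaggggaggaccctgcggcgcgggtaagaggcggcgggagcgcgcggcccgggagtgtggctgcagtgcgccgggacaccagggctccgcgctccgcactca
The COL4A3 window held 1 such core and the COL4A2 window held 1, while the windows of COL4A4 and COL4A1 held 0. The windows of COL4A3 and COL4A4 share 82 bases. The core marked for COL4A3 lies outside the COL4A4 window but between the starts of the pair, so it is upstream of both genes. Counts per window also depend on the start chosen. GENCODE 44 begins COL4A4 at 227164453 and COL4A2 at 110305812, upstream of the RefSeq starts used here. Among all 35097 promoter windows of 300 bases, 48.4% held either motif, and 19 of the 44 windows found for 32 collagen genes did (43.2%). Of the tested collagens 20 had a window, and 10 of their 26 windows held a motif (38.5%). A match describes the letters of a window and not a bound site.

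COL4A3 and COL4A4 encode chains that join with the COL4A5 chain in the mature glomerular basement membrane and are mutated in Alport syndrome. COL4A3 had 2, 1 and 0 reads for VC against 36, 18 and 28 for VHL-KO. COL4A4 had 6, 2 and 4 reads for VC against 75, 108 and 71 for VHL-KO. All VHL-KO samples stood above all VC samples for both genes. Relative to library sizes multiplied by their TMM factors, the pooled counts were 40 times higher in VHL-KO cells for COL4A3 (95% counting interval 13.2 to 198) and 31.0 times higher for COL4A4 (17.4 to 60.7). These intervals cover counting error only and leave out the spread between samples, so they are too narrow where samples differ by more. The fitted log2 fold changes were 5.11 (SE 0.72, adjusted p = 1.31e-06) and 4.92 (SE 0.39, adjusted p = 1.17e-10). Without VC replicate 1 the value of COL4A3 was 5.92 and without VC replicate 3 it was 4.53, while COL4A4 lay between 4.66 and 5.32 when one sample was left out. Both genes nevertheless had low levels in VHL-KO cells, 1.16 ± 0.287 CPM for COL4A3 and 3.71 ± 1.15 CPM for COL4A4 (mean ± SD, n = 3). Of the exonic bases of COL4A3, 6.82% overlap MFF-DT on the opposite strand, which was itself called higher (log2 fold change 0.76, adjusted p = 0.04, lost under 7 of the 15 alternatives). Whether the counting used strand is not given in the sources used here.

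COL4A1 and COL4A2 encode the chains of the common basement membrane network. COL4A1 had 8348, 8800 and 10049 reads for VC against 2399, 2062 and 2275 for VHL-KO, or 268 ± 26 and 97.3 ± 8.59 CPM (mean ± SD, n = 3 each). Each VHL-KO sample was below every VC sample. The log2 fold change was -1.46 (SE 0.10, adjusted p = 5.24e-12), a level 2.76-fold lower. COL4A2 had 823, 1008 and 778 CPM in VC and 660, 710 and 847 CPM in VHL-KO cells. VHL-KO replicate 3 reached into the range of the VC samples, and the log2 fold change was -0.24 (SE 0.10, adjusted p = 0.0526), just outside the threshold. COL4A2 was called lower under 7 of the 15 alternatives, including library size alone and the GC and length offsets.

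The balance between these partner chains was examined next, as COL4A1 had the larger negative fold change. The ratio restates this difference for each sample and is not independent of it. Reads per kilobase of the canonical transcript gave a COL4A1 to COL4A2 ratio of 0.293, 0.289 and 0.335 in VC and 0.134, 0.133 and 0.124 in VHL-KO cells. The samples of the 2 groups did not mix, with means of 0.306 ± 0.0255 and 0.130 ± 0.00537 (SD, n = 3 each). Across 7 chain pairs compared with an exact two-sided permutation test over samples, p was 0.1 for this pair (adjusted over the pairs, 0.233), and 0.1 is the smallest p that 3 against 3 samples can give. With the union of all exons as length, a choice made after seeing the data, the mean ratios were 0.408 and 0.174.

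COL4A5 and COL4A6 are a head-to-head pair on chromosome X. COL4A5 had 7.45 ± 0.856 CPM in VC and 7.75 ± 1.09 CPM in VHL-KO cells, with overlapping groups and a log2 fold change of 0.06 (adjusted p = 0.789). That value was -0.13 by library size alone, -0.05 without VHL-KO replicate 2 and 0.34 by the GC and length offsets (adjusted p = 0.0592). COL4A6 fell from 1.99 ± 0.498 to 1.08 ± 0.154 CPM (log2 fold change -0.89, SE 0.29, adjusted p = 0.0118), and the call was lost without VC replicate 2 or VHL-KO replicate 1. The ratio of COL4A5 to COL4A6 per kilobase was 4.56, 3.37 and 3.81 in VC and 7.59, 7.82 and 6.76 in VHL-KO cells (exact permutation p = 0.1, adjusted 0.233). Every VHL-KO sample thus had a higher ratio than every VC sample.

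**Figure D3:**
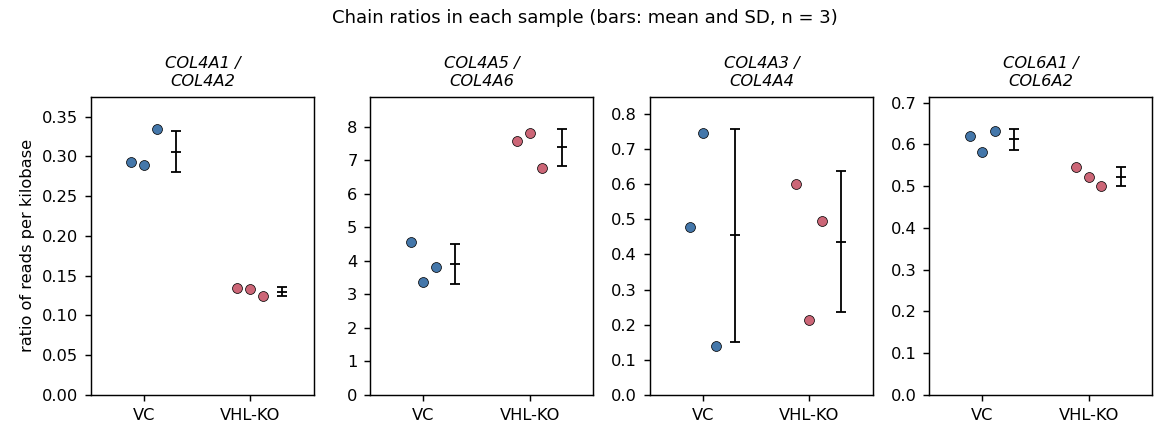
Ratio of reads per kilobase between chains in each sample for 3 type IV pairs and the COL6A1 and COL6A2 pair, with VC in blue, VHL-KO in red and bars for the mean and SD (n = 3). The COL4A1 to COL4A2 ratio fell from a mean of 0.306 to 0.130 without overlap, while the COL4A3 to COL4A4 ratio ranged from 0.138 to 0.745 in VC and from 0.212 to 0.6 in VHL-KO cells.

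The COL4A3 to COL4A4 ratio rests on few reads in VC, and 0.5 was added to each count to compute it. It was 0.478, 0.745 and 0.138 in VC and 0.6, 0.212 and 0.495 in VHL-KO cells. The groups overlapped, with an exact permutation p of 0.8.

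COL18A1 had the largest gain of any collagen in CPM. It encodes the multiplexin of basement membranes, a heparan sulfate proteoglycan whose C-terminal fragment is endostatin. COL18A1 had 636, 759 and 568 CPM in VC and 1259, 1330 and 1405 CPM in VHL-KO cells. All VHL-KO samples lay above all VC samples, with a log2 fold change of 1.03 (SE 0.10, adjusted p = 2.43e-09). In level per kilobase of transcript it moved from rank 4 of the 44 collagens in VC (121 ± 18 CPM per kb) to rank 1 in VHL-KO cells (246 ± 13.5). The gene has the highest GC content of the tested collagens, 66.8%. With the GC and length offsets its log2 fold change was 0.53, still called by adjusted p but short of 2-fold. It shares 18.5% of its exonic bases with SLC19A1, a folate carrier gene on the opposite strand. SLC19A1 went the other way, from 91.0 ± 11.5 to 70.6 ± 2.29 CPM (log2 fold change -0.37).

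The 3 tested chains of type VI collagen, which form beaded filaments near basement membranes, had negative fold changes. COL6A1 had 614, 711 and 544 CPM in VC and 460, 456 and 453 CPM in VHL-KO cells. It fell without overlap of the groups (log2 fold change -0.45, SE 0.09, adjusted p = 0.000215). COL6A2 had 812, 1000 and 705 CPM in VC and 691, 716 and 742 CPM in VHL-KO cells. The groups overlapped and the log2 fold change of -0.23 did not pass (adjusted p = 0.0564), although it did under 5 of the 15 alternatives. With the GC and length offsets the values of COL6A1 and COL6A2 were -0.87 and -0.67. COL6A3 was much scarcer, with 143, 133 and 155 reads for VC against 23, 55 and 66 for VHL-KO. VHL-KO replicate 1 was the lowest. COL6A3 fell 1.99-fold (log2 fold change -1, SE 0.28, adjusted p = 0.00421), and by -0.58 on the log2 scale without that replicate.

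Per kilobase the type VI chains were far from equal. COL6A2 was the most abundant collagen of VC cells at 243 ± 43.4 CPM per kb and COL6A1 the second at 148 ± 19.9, while COL6A3 had 0.403 ± 0.0193. In tissues these chains assemble together. The COL6A1 to COL6A2 ratio was 0.612 ± 0.0261 in VC and 0.523 ± 0.0230 in VHL-KO cells (exact permutation p = 0.1, adjusted 0.233), with each VHL-KO sample below each VC sample. The COL6A1 to COL6A3 ratio was 367, 398 and 334 in VC and 1340, 448 and 367 in VHL-KO cells (exact permutation p = 0.3, adjusted 0.42). VHL-KO replicates 1 and 2 lay above all VC samples and replicate 3 among them.

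COL7A1, the chain of the anchoring fibrils that tie epithelia to the underlying stroma, had 206, 232 and 179 CPM in VC and 209, 226 and 233 CPM in VHL-KO cells. The groups overlapped, and the log2 fold change of 0.11 did not pass the test (adjusted p = 0.321). Its direction depended on the settings. It was negative by library size alone (-0.08), called lower by the GC and length offsets (-0.35), and called higher without VC replicate 2 (0.23, adjusted p = 0.0135).

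Fibrillar collagens were represented by 5 of 11 genes with 10 or more reads. COL5A2, a chain of type V collagen that takes part in setting fibril diameter, had 4961, 4744 and 5776 reads for VC against 1491, 1283 and 1466 for VHL-KO. It fell from 152 ± 7.19 to 61.3 ± 6.67 CPM with no overlap (log2 fold change -1.31, SE 0.10, adjusted p = 3.8e-11). Its partner COL5A1 had 1 read in VC replicate 1 and none elsewhere. COL1A1, the major chain of type I collagen, fell from 33.6 ± 3.76 to 25.1 ± 2.40 CPM (log2 fold change -0.42, adjusted p = 0.00424), and its partner COL1A2 had 1 read in VC replicate 3 and none elsewhere. The mRNA of the usual partner was thus at or near the limit of detection for both chains.

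COL27A1, a fibrillar collagen of cartilage, was higher, at 61.8 ± 6.48 CPM in VC and 79.3 ± 1.38 CPM in VHL-KO cells (log2 fold change 0.36, adjusted p = 0.00296). It was 0.17 by library size alone and 0.05 by the GC and length offsets and was not called under either. COL24A1 and COL11A2 stayed under 1.2 CPM in every sample and did not pass, with log2 fold changes of 0.25 (adjusted p = 0.733) and 0.69 (adjusted p = 0.221). COL11A2 was called higher without VHL-KO replicate 2 (1.07).

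Among FACIT collagens, 5 of 10 genes were tested. COL12A1, which binds the surface of type I fibrils, had 1299, 1075 and 1555 reads for VC against 332, 300 and 406 for VHL-KO. All VHL-KO samples were lower, at 15.1 ± 3.47 CPM against 38.4 ± 2.41 in VC (log2 fold change -1.35, SE 0.14, adjusted p = 7.88e-09). COL16A1 fell from 85.5 ± 12.4 to 67.3 ± 0.944 CPM (log2 fold change -0.34, adjusted p = 0.00612), a call that was lost with upper quartile factors. COL14A1 had 23.8 ± 1.62 CPM in VC and 30 ± 4.10 CPM in VHL-KO cells with overlapping samples, and its call as higher (log2 fold change 0.33, adjusted p = 0.0234) was lost under 5 of the 15 alternatives. These include library size alone (0.14). COL9A2 and COL9A3 encode chains of type IX collagen and stayed under 1.4 CPM, with log2 fold changes of 0.75 (adjusted p = 0.0573) and -0.65 (adjusted p = 0.492) that did not pass. COL9A2 was called higher under 2 of the 15 alternatives, and the value of COL9A3 lay between -1.81 and -0.20 when one sample was left out.

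COL8A1 encodes a short-chain collagen that forms hexagonal networks in the matrix around endothelia and blood vessels. It had 743, 724 and 880 reads for VC against 1253, 1025 and 988 for VHL-KO. After normalization this was 23.1 ± 1.31 and 46.9 ± 0.581 CPM, so the VHL-KO samples agreed closely and lay above all VC samples (log2 fold change 1.02, SE 0.11, adjusted p = 1.21e-08). Its GC content is low, 43.95%, and the offsets raised the value to 1.32. Its relative COL8A2 had at most 16 counts in a sample and did not pass (log2 fold change 1.07, SE 0.55, adjusted p = 0.1, between 0.82 and 1.53 when one sample was left out).

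COL13A1, a collagen that spans the cell membrane and is found at sites of adhesion, had 575, 432 and 516 reads for VC against 112, 100 and 129 for VHL-KO. It fell from 15.0 ± 1.67 to 4.96 ± 0.970 CPM without overlap, a 3.03-fold lower level (log2 fold change -1.60, SE 0.17, adjusted p = 1.37e-08). This was the largest fall of the 26. COL17A1, the transmembrane collagen of hemidesmosomes, had overlapping groups and did not pass (log2 fold change -0.39, adjusted p = 0.125), although it was called lower under 2 of the 15 alternatives. COL28A1 had 8 to 33 counts per sample, with VHL-KO replicate 2 the highest, and a log2 fold change of 1.10 (adjusted p = 0.071). It was called higher under 5 of the 15 alternatives, and its value lay between 0.49 and 1.47 when one sample was left out.

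The 18 collagens under 10 reads in every sample got no test. No read was counted for 8 of them, COL2A1, COL3A1, COL6A5, COL6A6, COL10A1, COL15A1, COL20A1 and COL22A1. COL3A1 is a major fibrillar collagen of fibroblasts, and COL15A1 is the other multiplexin. A maximum of 1 read was found for COL1A2, COL5A1, COL5A3, COL23A1 and COL26A1, and of 2 reads for COL9A1. COL11A1 and COL21A1 reached 4 reads in VC replicate 3, COL25A1 reached 7 in the same sample, and COL19A1 reached 8 in VHL-KO replicate 1 with 0 in the other VHL-KO samples. No fold is given for these genes.

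Summed over all 44 genes, collagen mRNA was 3780, 4492 and 3474 CPM in VC and 3708, 3889 and 4155 CPM in VHL-KO cells. The means, 3915 ± 523 and 3918 ± 225 CPM, differed by far less than the spread between samples. The composition did change. COL18A1 took 16.8%, 16.9% and 16.3% of collagen reads in VC and 34.0%, 34.2% and 33.8% in VHL-KO cells. COL4A2 went from a mean of 22.2% to 18.8%, COL6A2 from 21.3% to 18.3%, COL6A1 from 15.9% to 11.7%, COL4A1 from 6.89% to 2.48% and COL5A2 from 3.92% to 1.56%. Without COL18A1 the sum was 3261 ± 426 CPM in VC and 2586 ± 152 CPM in VHL-KO cells, and the samples did not overlap. COL18A1 was left out as the collagen with the most counts over all samples, which it was because of its rise in VHL-KO cells. With nearly equal totals the remainder then had to be lower, so this sum restates that rise and is no separate result.

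**Figure D4:**
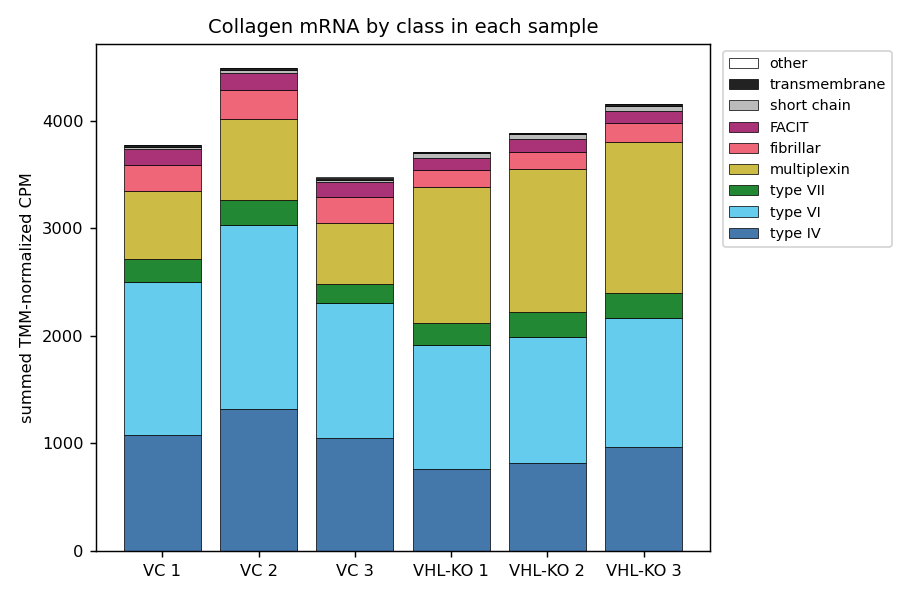
Summed TMM-normalized CPM of the 44 collagen genes in each sample, stacked by class. The totals lie between 3474 and 4492 CPM in both groups, while the multiplexin share, which is COL18A1, grew from a mean of 654 CPM in VC to 1331 CPM in VHL-KO cells.

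By class, the summed level of type IV chains was 1148 ± 146 CPM in VC and 850 ± 106 CPM in VHL-KO cells, and that of type VI chains was 1466 ± 234 and 1175 ± 23.0 CPM. Fibrillar chains summed to 249 ± 13.8 and 167 ± 5.73 CPM, FACIT chains to 149 ± 9.80 and 114 ± 7.45 CPM, and transmembrane chains to 19.9 ± 0.804 and 8.82 ± 1.72 CPM. The sums of these 5 classes were lower in VHL-KO cells whether scaled by TMM, relative log expression or upper quartile factors or by library size. Short-chain collagens summed to 23.4 ± 1.15 and 47.5 ± 0.633 CPM and were higher with each of the 4 scalings. These sums got no test and follow their most abundant members, not each gene of a class. The fibrillar sum fell with COL5A2 (152 to 61.3 CPM), while the median log2 fold change of the tested fibrillar genes was 0.25 and COL27A1 rose. Most of the transmembrane sum was COL13A1, most of the short-chain sum COL8A1, and most of the type IV sum COL4A2, which did not pass.

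Genes that modify, fold, process, link, bind and degrade collagen were examined as 6 lists. Of 14 genes for hydroxylases and glycosyltransferases of collagen chains or for partners in their complexes, 8 rose and 2 fell. Of all genes 28.5% rose and 31.2% fell. The median log2 fold change was 0.41 for the list and -0.01 for all genes. P4HB, the shared subunit of prolyl 4-hydroxylase, rose from 2686 ± 309 to 5385 ± 69.5 CPM (log2 fold change 1.00, adjusted p = 5.99e-10). PLOD1, a lysyl hydroxylase, rose from 198 ± 23.5 to 445 ± 10.6 CPM (1.17, adjusted p = 1.22e-10). The prolyl 4-hydroxylase genes P4HA1 (0.87) and P4HA2 (0.81) and the lysyl hydroxylase PLOD2 (0.67) also rose. PLOD3 was called higher at 0.25, but 9 of the 15 alternatives did not keep this, and with the GC and length offsets it had -0.07. COLGALT2, which adds galactose to hydroxylysine, fell from 2.15 ± 0.233 to 0.438 ± 0.1 CPM (-2.26, adjusted p = 2.53e-06), and COLGALT1 was lower by less (-0.26), a call lost under 4 of the 15 alternatives.

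Among 17 genes of chaperones and secretion, 5 rose and 6 fell (median -0.06), close to the 28.5% and 31.2% of all genes. FKBP10, a prolyl isomerase of procollagen, rose from 213 ± 24.2 to 513 ± 13.1 CPM (1.27, adjusted p = 2.48e-11), and PPIB rose too (0.55). FKBP14, HSP90B1 and PDIA3 were called higher, but not by library size alone. SEC23A, a component of the COPII coat that carries procollagen out of the endoplasmic reticulum, fell from 24.7 ± 5.53 to 7.87 ± 1.16 CPM (-1.66, adjusted p = 3.42e-09). CREB3L2, a transcription factor that induces SEC23A in chondrocytes, fell from 74.2 ± 6.26 to 29.6 ± 5.90 CPM (-1.33, adjusted p = 1.24e-09). SERPINH1, the collagen-specific chaperone, did not pass (-0.21, adjusted p = 0.0889) but was called lower by the GC and length offsets (-0.42).

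In the list of propeptide processing, 8 of 11 genes were tested, of which 2 rose and 2 fell (median -0.19), no more than the 28.5% and 31.2% of all genes. BMP1, the main C-propeptidase, rose (1.24, adjusted p = 1.83e-10), as did its enhancer PCOLCE, from 3.85 ± 0.401 to 9.32 ± 1.20 CPM (1.28, adjusted p = 9.67e-07). ADAMTS3, an N-propeptidase, fell from 11.1 ± 2.49 to 4.34 ± 1.09 CPM (-1.36, adjusted p = 1.92e-06). TLL1, a relative of BMP1, had 25 counts in all VC samples and 2 in VHL-KO, both in replicate 1, or 8.55 times more in VC (95% counting interval 2.13 to 74.4). Its log2 fold change of -2.92 lay between -5.84 and -2.45 when one sample was left out. The call (adjusted p = 0.0278) was lost under 6 of the 15 alternatives, DESeq2 among them.

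Of 6 cross-linking oxidases 5 were tested, of which 4 rose and none fell (median 0.62), beside 28.5% higher and 31.2% lower among all genes. LOXL2, a lysyl oxidase that acts on type IV collagen, rose from 492 ± 30 to 1223 ± 59.0 CPM (1.31, adjusted p = 3.77e-12), and LOX rose from 9.02 ± 0.590 to 20.4 ± 3.43 CPM (1.17, adjusted p = 1.97e-07). PXDN, the peroxidasin that makes sulfilimine links between type IV chains, rose from 120 ± 12 to 184 ± 15.4 CPM (0.62, adjusted p = 5.49e-06), and LOXL4 rose as well (0.58). LOXL3 did not pass (-0.46, adjusted p = 0.218).

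**Figure D5:**
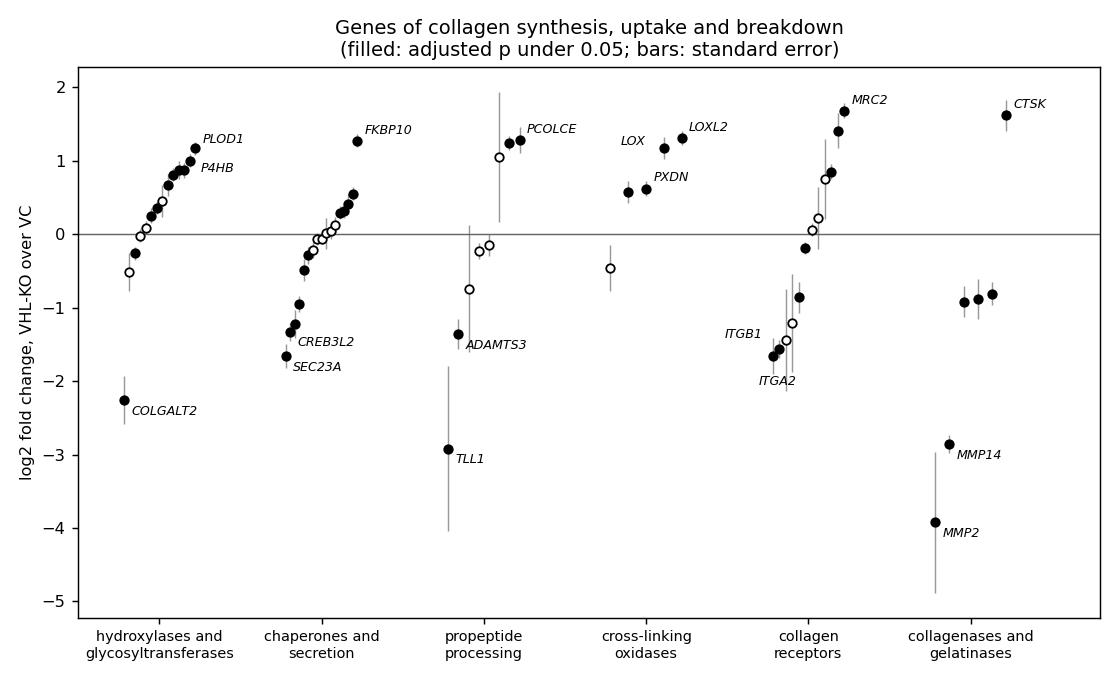
Log2 fold change with standard error of the tested genes in 6 lists of collagen synthesis, uptake and breakdown, with filled circles for adjusted p-values under 0.05 and names for the 3 called genes with the largest change in each list. Cross-linking oxidases had 4 of 5 genes higher, and collagenases and gelatinases had 5 of 6 genes lower, with MMP14 at -2.86.

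Of 12 tested collagen receptors 3 were higher and 4 lower (median -0.07), about the shares of all genes, 28.5% and 31.2%. MRC2, the endocytic receptor that takes up collagen fragments, rose from 743 ± 107 to 2379 ± 123 CPM (1.68, adjusted p = 3.86e-13), and the receptors DDR1 (0.85) and OSCAR (1.41) rose too. Of 5 integrin chains tested, 3 were called lower, ITGA10 (-1.44) did not pass and ITGA11 had a positive value that did not pass (0.75). ITGB1 fell from 663 ± 122 to 226 ± 33.3 CPM (-1.56, adjusted p = 4.15e-11) and its partner ITGA2 from 4.97 ± 0.739 to 1.59 ± 0.593 CPM (-1.66, adjusted p = 2.9e-06). ITGA1 was lower at -0.86, which was -0.34 and not called with the GC and length offsets. CD44 was called lower at -0.19 (adjusted p = 0.0449), but this held under 3 of the 15 alternatives only, and with the offsets it was called higher (0.19, adjusted p = 0.00552).

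Collagen-degrading enzymes fell in 5 of the 6 genes tested, out of 9 listed, and rose in 1 (median -0.90), where 31.2% of all genes fell and 28.5% rose. MMP14, a membrane-bound collagenase, had 2730, 2711 and 2944 reads for VC against 267, 261 and 263 for VHL-KO. This was a fall from 82.9 ± 7.31 to 11.5 ± 1.29 CPM (-2.86, adjusted p = 8.63e-16). MMP2, the gelatinase that MMP14 activates, had 49 counts in all VC samples and 2 in VHL-KO, both in replicate 1, or 16.8 times more in VC (95% counting interval 4.4 to 142, adjusted p = 0.00113). Its log2 fold change was -3.92 and lay between -6.83 and -3.44 when one sample was left out. MMP9, MMP15 and MMP16 also fell, with log2 fold changes between -0.92 and -0.81, of which MMP9 was not called without VHL-KO replicate 2 and MMP16 not with the GC and length offsets. The gene that rose was CTSK, the lysosomal collagenase cathepsin K, from 2.08 ± 0.405 to 6.41 ± 1.20 CPM (1.62, adjusted p = 5.06e-07). MMP1, MMP8 and MMP13, the secreted interstitial collagenases, had under 10 reads in every sample.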

How the data were processed

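Total RNA of 3 VC and 3 VHL-KO samples was sequenced on an Illumina NovaSeq. The values deposited by the authors are raw counts of reads per gene. Per the methods, reads were trimmed with Trim Galore and cutadapt, STAR placed those of at least 20 nt on GRCh38.p13, reads with a single location were kept with SAMtools, and HTSeq counted them. Versions, strandedness and annotation release are not given in the sources used here.

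The 17401 genes reaching 10 reads in 1 or more samples were tested with edgeR 4.0.16 in R 4.3.3 (TMM factors, quasi-likelihood F test, two-sided, Benjamini-Hochberg adjustment over all of them, threshold 0.05). The fit was tested on simulated data. Few genes changed in that simulation and no trend with GC content was put in, so it does not cover data with as many changes as these. CPM uses TMM factors. Lengths are those of canonical transcripts of GENCODE 44, GC content is that of all exons, and promoter windows come from RefSeq on GRCh38.p14. Ratios of pooled counts use library size times TMM factor, with an exact binomial counting interval. Each such interval leaves out the spread between samples.

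The collagen genes, their classes and the lists of pathway and marker genes were chosen with earlier results of these data known. The naming rule took VHL, every collagen gene and the 3 called genes with the largest change in each pathway list. All samples were given for tested collagens called with a 2-fold change, at 3 counts or fewer in a group or among the 5 most abundant. Other genes were named after their values were seen. Alternatives were DESeq2 1.42.0, factors by relative log expression or upper quartile, library size without factors, 2 other filters, each sample left out and the replicate number as a block. Offsets for GC content and length (natural splines, 5 degrees of freedom) were used alone and together with that block. Both GC content and length were known for 17355 genes.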

Additional observations from a re-analysis of the deposited data

How the results depend on the processing

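Of the 15 collagen genes called, 11 kept their call and direction under every one of the 15 alternatives that tested them. The exceptions were COL4A6, COL14A1, COL16A1 and COL27A1. Over all 26 genes, 343 of 383 values kept direction and side of the threshold, 24 came to pass it, 11 no longer passed and 5 reversed. The collagen median of -0.09 was 0.02 with upper quartile factors, -0.28 with library size alone, -0.27 with no filter beyond 1 count, -0.31 with at least 10 reads in every sample, -0.28 with GC and length offsets, and between -0.14 and 0.05 with one sample left out. Both filters take the median over another set of collagens. The looser adds collagens under 10 reads, and the stricter leaves out low ones such as COL4A3 and COL4A4. The log2 ratio of the summed level, 0.00, was -0.19 with library size alone, -0.33 without COL18A1, and between -0.08 and 0.11 with one sample left out. COL7A1 (0.11) was -0.08 by library size alone and -0.35 by the offsets but 0.23 and called higher without VC replicate 2. COL4A5 (0.06) was -0.13 by library size alone, 0.34 by the offsets and ranged from -0.05 to 0.17 with one sample left out, and with the offsets PLOD3 (0.25) was -0.07, MIA2 (-0.49) was 0.01 and CD44 (-0.19) was 0.19. The log2 difference of the COL4A3 to COL4A4 ratio ranged from -0.58 to 0.63 and that of the COL8A1 to COL8A2 ratio from -0.61 to 0.21 with one sample left out. For all of these the cause was not tested.

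Replicate numbers are shared by the groups, but samples with the same number did not deviate together (r of 0.0627, -0.000449 and 0.0283), and not every sample correlated best with its own number. For the number of genes called, all genes counted, the replicate block gave 10284 in place of 10394, and 6 collagens were higher and 10 lower, the added one being COL4A2 (-0.23).

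With the replicate block and the GC and length offsets together the collagen median was -0.28, COL7A1 was -0.35, COL4A5 was called higher (0.34, adjusted p = 0.033), PLOD3 -0.07, MIA2 0.01 and CD44 0.19. Depth limits the 18 untested collagens and the VC levels of COL4A3 and COL4A4, which rest on 3 and 12 reads.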

Other observations

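Some genes whose symbols begin with COL are not collagens by the rule used here but are related to them. COLQ encodes the collagen-like tail that anchors acetylcholinesterase at the neuromuscular junction. It had 13, 10 and 18 reads for VC against 55, 45 and 32 for VHL-KO, and rose from 0.397 ± 0.0702 to 1.88 ± 0.330 CPM without overlap (log2 fold change 2.22, SE 0.36, adjusted p = 9.79e-06 in edgeR). The collectins COLEC10 and COLEC12 carry a short collagen-like stretch next to a lectin domain. COLEC10 had 32, 22 and 41 reads for VC against 6, 0 and 3 for VHL-KO, a pooled level 7.22 times higher in VC (95% counting interval 3.65 to 16.3, adjusted p = 0.000375). COLEC12 had 12, 8 and 13 reads for VC against 3, 0 and 0 for VHL-KO, 7.52 times higher in VC (2.36 to 38.3, adjusted p = 0.0182), a call that was lost in 3 of the fits that left out a sample. With one sample left out the log2 fold change of COLEC10 (-2.81) lay between -3.64 and -2.28 and that of COLEC12 (-2.81) between -6.24 and -2.31. These genes were named after their values were seen. Antisense genes and pseudogenes named after collagens had at most 9 counts in any sample, among them COL18A1-AS1 with at most 5 and COL4A2-AS1 with at most 9.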
